A study of Mus musculus with 6 samples.

Results

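Melanin synthesis and melanosome genes were followed as 10 genes chosen by name, namely Tyr, Tyrp1, Dct, Pmel, Mlana, Oca2, Slc45a2, Slc24a5, Mlph and Gpr143, out of 54838 genes in the deposited table. All 10 matched the table by symbol, and all 10 passed the filter on low counts. RNA was sequenced from mouse melanoma cells, either as control cultures (n = 3 libraries) or after exposure to fenofibrate at 50 µM (n = 3). No other treatment, vehicle or exposure time is given in the sources used here, and the series describes each group as biological triplicates of B16F10, a metastatic subline of a melanoma of the C57BL/6 mouse. In the labels' cell line field the 6 samples carry 6 different names, from B16F10 up to B16F15. If that field is meant as written, line and treatment cannot be told apart. Fenofibrate is a lipid-lowering drug that acts, once hydrolysed in the body, on the nuclear receptor PPARα.

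Melanin is made in the melanosome, a lysosome-related organelle of the pigment cell. Tyrosinase (Tyr) carries out the rate-limiting oxidation of tyrosine, and its relatives Dct and, in the mouse, Tyrp1 act on later intermediates of black-brown eumelanin. Pmel builds the fibrils on which pigment is deposited, transporters set the ion content and pH of the organelle, and Mlph links it to the actin motor that carries it to the cell edge. Many of these genes are known targets of MITF, the master transcription factor of melanocytes, which binds E-box sequences, of which the M-box is the form described in pigment gene promoters.

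Promoter windows, in which such E-boxes can be looked for, were read from RefSeq (GRCm38.p6) from 250 bases before to 50 bases after the transcript start. Of the 10 genes, 6 have a window in that table. The M-box was searched as TCATGTG on both strands. It includes the E-box CATGTG, which was also searched by itself on both strands. The palindromic E-box CACGTG was a further motif. Since the M-box is a form described in pigment gene promoters, finding it in such windows is no independent result. An M-box lay in the windows of Tyr, Tyrp1, Dct and Slc24a5, which is 4 of 6, and in 3.77% of the 32851 windows of the same length in the table. Its first base, counted from the start with -1 as the base before it, was at -22 in Tyr, -47 in Tyrp1, -13 in Slc24a5 and both -232 and -151 in Dct. The copies at -232 in Dct and at -13 in Slc24a5 lay on the opposite strand. For any motif on that strand, the position given is the most upstream base of the match as read on the gene's strand. Positions count from the RefSeq start, which for Tyrp1 lies downstream of the gene start in the deposited data (80834123). The Tyrp1 M-box thus lies inside the gene's span as given there. Oca2 held the core CATGTG at -186 on the opposite strand, outside any M-box, and 14.2% of all windows held that core. Mlph held no M-box in its window and had CACGTG at -48, a motif in 7.15% of all windows. One exact form of the PPAR response element, a direct repeat of AGGTCA with 1 base between the copies, was searched on both strands. It was in 0 of the 6 windows and in 0.0396% of all windows. At so low a share, 6 windows cannot show whether the element is lacking. Variant forms and sites outside the windows were not searched. The windows of the 3 tyrosinase family enzymes and of Mlph are shown because these genes span the range of responses described below, from the smallest change to the largest. Each is written 5′ to 3′ on the gene's strand, with M-box or E-box letters in capitals. They lie at chr7:87493463-87493762 (minus strand), chr4:80833963-80834262 (plus strand), chr14:118052197-118052496 (minus strand) and chr1:90914850-90915149 (plus strand).
Tyr: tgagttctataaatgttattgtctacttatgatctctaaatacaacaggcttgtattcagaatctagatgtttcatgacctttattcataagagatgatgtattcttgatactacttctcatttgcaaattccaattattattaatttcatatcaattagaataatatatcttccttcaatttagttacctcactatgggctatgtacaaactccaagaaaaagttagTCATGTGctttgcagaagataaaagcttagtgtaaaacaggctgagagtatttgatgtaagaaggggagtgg
Tyrp1: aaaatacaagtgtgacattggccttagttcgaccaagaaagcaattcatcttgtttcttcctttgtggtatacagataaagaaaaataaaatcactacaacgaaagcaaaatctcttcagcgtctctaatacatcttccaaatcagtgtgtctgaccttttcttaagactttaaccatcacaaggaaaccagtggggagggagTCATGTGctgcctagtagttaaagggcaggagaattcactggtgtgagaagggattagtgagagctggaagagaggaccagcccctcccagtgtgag
Dct: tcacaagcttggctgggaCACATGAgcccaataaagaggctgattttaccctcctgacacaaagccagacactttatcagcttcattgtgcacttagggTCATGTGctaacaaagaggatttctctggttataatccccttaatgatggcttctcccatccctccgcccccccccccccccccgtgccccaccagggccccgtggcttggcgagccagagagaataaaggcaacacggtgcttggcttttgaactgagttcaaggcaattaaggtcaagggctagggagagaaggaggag
Mlph: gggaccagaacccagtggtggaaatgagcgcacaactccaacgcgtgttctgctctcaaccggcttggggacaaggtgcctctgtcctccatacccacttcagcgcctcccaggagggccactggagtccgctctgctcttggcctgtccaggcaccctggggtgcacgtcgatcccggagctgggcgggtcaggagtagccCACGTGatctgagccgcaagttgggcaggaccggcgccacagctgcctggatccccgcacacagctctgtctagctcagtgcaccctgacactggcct

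**Figure D1:**
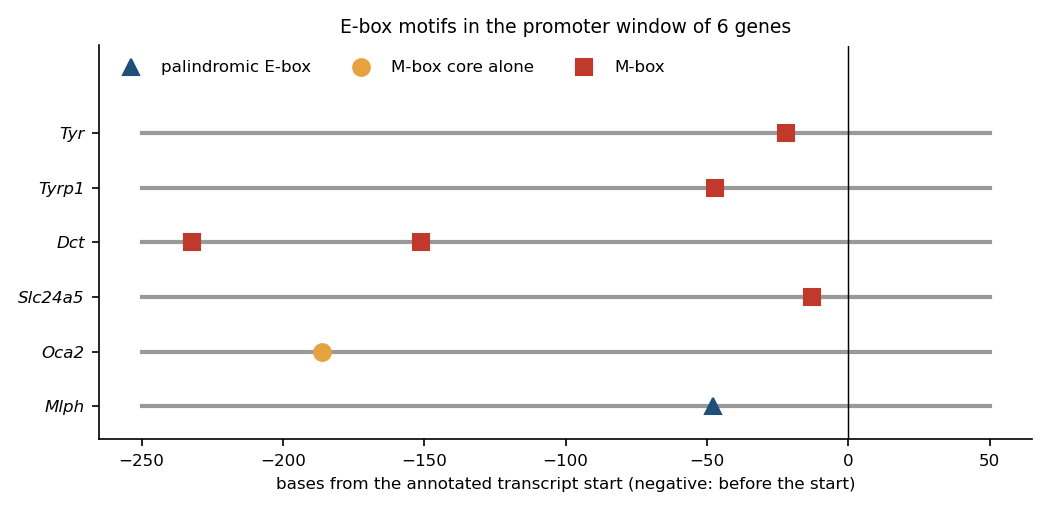
Positions of E-box motifs in the promoter windows of 6 genes, in bases from the transcript start annotated by RefSeq (x axis), with 1 line per gene. Squares mark M-boxes, the circle the M-box core alone and the triangle the palindromic E-box; Tyr, Tyrp1 and Slc24a5 have 1 M-box each within 50 bases of the start, and Dct has M-boxes at -232 and -151.

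The libraries held 13540038 to 14710856 counts, and mitochondrially encoded genes took 5.88% to 6.66% of them. Expression is given as normalised CPM, the count relative to a library total that TMM scales for composition, and each change as the log2 ratio of fenofibrate to control from edgeR's quasi-likelihood test. Calls were made at an adjusted p of 0.05 (Benjamini-Hochberg, over the 13629 genes tested). The markers taken for a melanocytic cell, namely the 10 genes, Mitf and Sox10, were counted in every library. Since the 10 genes are also those followed here, this is no independent check of the label. Of 6 keratinocyte markers 5 had a count of 0 in all libraries (Krt5, Krt1, Krt10, Trp63 and Dsg3), as had 4 of 5 endothelial markers (Kdr, Cdh5, Tek and Emcn) and 3 of 6 blood cell markers (Adgre1, Itgam and Cd3e). The 6 fibroblast markers summed to 23.2 to 26.3 CPM in control and 7.46 to 8.57 with fenofibrate. Most of that sum was Col1a2, a collagen gene, which was called lower (log2 fold change -1.64, adjusted p = 4.18e-05). Blood cell markers summed to 0 to 0.662 CPM in control and 0.886 to 1.39 with fenofibrate, and the other sums were at most 0.662 CPM in any library. The part of these cell types in the results below was not tested.

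Fenofibrate-treated cells held more RNA of most pigment genes, but not of tyrosinase itself beyond the spread between libraries. Of the 10 genes, 8 rose, 0 fell and 2, Tyr and Tyrp1, were not called. Of all genes tested 39.1% were called, 19.5% as higher and 19.5% as lower. At an unadjusted p under 0.05 the same edgeR test gave 9 higher and 0 lower. The share over all genes was not taken at that threshold and is at least the 19.5% per direction called after adjustment. DESeq2 called 9 higher and 0 lower, beside 2265 higher and 2181 lower among all 13629 genes tested. The median change of the 10 was a log2 fold change of 0.34 (1.27-fold), and that of all genes tested was -0.00. All 3 fenofibrate values lay above all 3 control values for 8 of the 10 genes, and for 0 of them below. Of all genes tested 53.3% had groups without overlap, 26.4% with fenofibrate higher. Over all genes 2664 were called higher and 2662 lower; scaled by library totals alone, which shifts the median of all genes to -0.06, the split was 2180 higher and 3280 lower. On that scale 7 of the 10 genes were called higher and 0 lower. In bulk RNA, a higher level per cell and more cells of a pigmented state cannot be told apart.

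**Figure D2:**
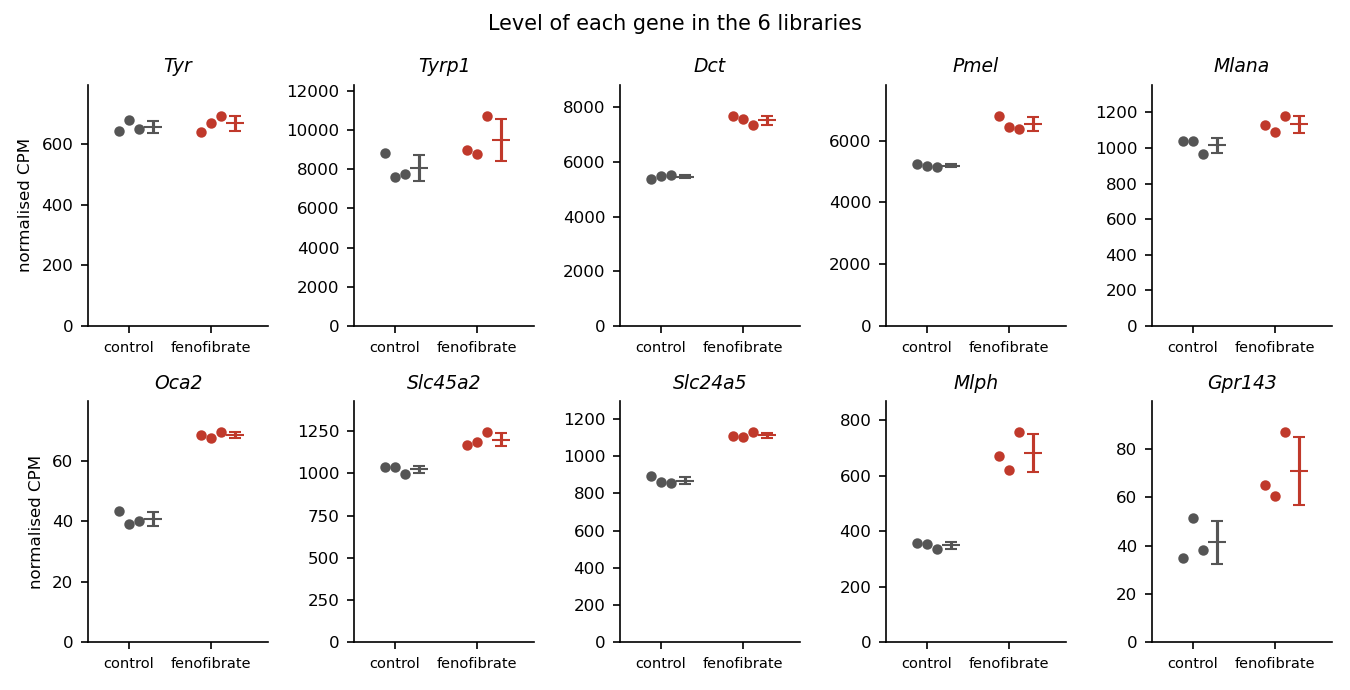
Normalised CPM (y axis, from 0) of each gene in the 3 control libraries (grey points) and the 3 fenofibrate libraries (red points), with the mean and SD of each group as a bar beside them. The groups do not overlap for 8 of the 10 genes; they do for Tyr and Tyrp1.

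The enzymes of the tyrosinase family did not move alike. Dct, the dopachrome tautomerase gene (ENSMUSG00000022129, chromosome 14, 118012790 to 118052244), had 5392, 5501 and 5509 normalised CPM in control and 7684, 7562 and 7349 with fenofibrate. Every fenofibrate library was above every control library, and the values within each group lay close together. Dct rose 1.38-fold, with group means of 5468 ± 65.2 and 7532 ± 169.6 normalised CPM (SD, 3 libraries per group) and a log2 fold change of 0.46 ± 0.03 (SE, 95% interval 0.40 to 0.53, adjusted p = 3.65e-05). Tyr, which encodes the rate-limiting enzyme (ENSMUSG00000004651, chromosome 7, 87424771 to 87493512), had 645, 681 and 650.0 normalised CPM in control and 642, 672 and 694 with fenofibrate. The groups overlapped, with the lowest of all 6 values in a fenofibrate library. Group means were 659 ± 19.4 and 669 ± 25.9 normalised CPM (SD, 3 libraries per group), with a log2 fold change of 0.02 ± 0.04 (SE, 95% interval -0.07 to 0.12, adjusted p = 0.684). A change of Tyr beyond 0.952 to 1.09 times control lay outside that interval. The sign of this small difference depended on the scaling, being -0.03 with library totals alone.

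Tyrp1, which in the mouse oxidises a late indole intermediate (ENSMUSG00000005994, chromosome 4, 80834123 to 80851719), was counted more often than any of the other 9 genes, and its libraries were spread widely. It had 8835, 7608 and 7741 normalised CPM in control and 8983, 8761 and 10711 with fenofibrate. One control library was above 1 fenofibrate library, and fenofibrate replicate 3 was the highest by a wide gap. Control and fenofibrate means were 8061 ± 673 and 9485 ± 1068 normalised CPM (SD, 3 libraries per group), with a log2 fold change of 0.23 ± 0.09 (SE, 95% interval 0.03 to 0.44, adjusted p = 0.0663). The SD was 8.35% of the mean in control and 11.3% with fenofibrate, whereas counting error alone gives at most 0.306%. The call turned on 1 control library and on the tool: without control replicate 1 Tyrp1 passed (log2 fold change 0.30, adjusted p = 0.0367), and DESeq2 called it (adjusted p = 0.0166). Over all 13 alternatives the adjusted p of Tyrp1 ran from 0.0166 to 0.186. Its log2 fold change ran from 0.14, without fenofibrate replicate 3, to 0.30.

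The transcripts of the fibril protein Pmel and of its binding partner Mlana were called higher, that of Mlana in 6 of 13 alternatives. Pmel, the gene of the fibril-forming protein (ENSMUSG00000025359, chromosome 10, 128704195 to 128720238), had 5249, 5185 and 5141 normalised CPM in control and 6795, 6449.6 and 6361 with fenofibrate. The groups were well apart, and the control values lay within a narrow range. Pmel rose 1.26-fold, with group means of 5192 ± 53.9 and 6535 ± 229 normalised CPM (SD, 3 libraries per group) and a log2 fold change of 0.33 ± 0.03 (SE, 95% interval 0.26 to 0.41, adjusted p = 0.000268). Its annotated span overlaps Cdk2 and Dgka on the other strand, with 34 and 105 shared exon bases. Cdk2 was counted 5063 to 12369 times in the 6 libraries and Dgka 9 to 51 times, against 70888 to 91607 for Pmel. Mlana, whose product (MART-1) binds Pmel and is a well-known melanoma antigen (ENSMUSG00000024806, chromosome 19, 29697921 to 29708448), had 1038, 1042 and 967 normalised CPM in control and 1129, 1087 and 1179.9 with fenofibrate. The groups were apart by less than the range within either of them. Mlana rose 1.11-fold, with group means of 1016 ± 42.3 and 1132 ± 46.3 normalised CPM (SD, 3 libraries per group) and a log2 fold change of 0.16 ± 0.04 (SE, 95% interval 0.05 to 0.26, adjusted p = 0.0262). That call was the least stable of the 8. It was lost without control replicate 3 (adjusted p = 0.0723), without fenofibrate replicate 1 (0.0601), without fenofibrate replicate 3 (0.0702) and with library totals as the scaling (0.111), and its adjusted p ran from 0.0230 to 0.148 over 13 alternatives.

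All 3 melanosomal transporter genes rose, by different amounts. Oca2, whose product sustains chloride conductance and a near-neutral melanosome pH (ENSMUSG00000030450, chromosome 7, 56239760 to 56536518), had 43.3, 39.2 and 40.0 normalised CPM in control and 68.6, 67.4 and 69.4 with fenofibrate. The fenofibrate values were almost equal to each other and far above the control values. Oca2 rose 1.68-fold, with group means of 40.8 ± 2.18 and 68.5 ± 0.982 normalised CPM (SD, 3 libraries per group) and a log2 fold change of 0.75 ± 0.06 (SE, 95% interval 0.61 to 0.88, adjusted p = 0.000108). It is among the less counted of the 10 genes, with 551 to 999 counts per library. Slc24a5, a potassium-dependent sodium-calcium exchanger gene (ENSMUSG00000035183, chromosome 2, 125068124 to 125088677), had 892, 859 and 855 normalised CPM in control and 1105, 1103 and 1126 with fenofibrate. No fenofibrate value came near the control range. Slc24a5 rose 1.28-fold, with group means of 868 ± 20.1 and 1111 ± 12.9 normalised CPM (SD, 3 libraries per group) and a log2 fold change of 0.36 ± 0.03 (SE, 95% interval 0.28 to 0.43, adjusted p = 0.000169). It shares 921 exon bases with Myef2 on the other strand, which had 1325 to 1656 counts per library, against 11791 to 16216 for Slc24a5, so its counts can hold some reads of Myef2. Slc45a2, a transporter gene that also bears on melanosome pH (ENSMUSG00000022243, chromosome 15, 11000721 to 11029233), had 1036, 1036 and 998 normalised CPM in control and 1168, 1182 and 1241 with fenofibrate. The groups were apart, though less widely than those of Oca2. Slc45a2 rose 1.17-fold, with group means of 1023 ± 22.0 and 1197 ± 38.6 normalised CPM (SD, 3 libraries per group) and a log2 fold change of 0.23 ± 0.04 (SE, 95% interval 0.14 to 0.31, adjusted p = 0.00214).

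The largest change of the 10 was that of a transport gene. Mlph, which encodes melanophilin, the adaptor between Rab27a on the melanosome and myosin Va (ENSMUSG00000026303, chromosome 1, 90915085 to 90951142), had 359, 354 and 335 normalised CPM in control and 671, 619 and 755 with fenofibrate. Even the lowest fenofibrate library was well above the highest control library. Mlph rose 1.95-fold, with group means of 349 ± 12.9 and 682 ± 68.6 normalised CPM (SD, 3 libraries per group) and a log2 fold change of 0.97 ± 0.07 (SE, 95% interval 0.80 to 1.13, adjusted p = 7.84e-05). Of all genes tested, 3.76% had a larger log2 fold change. Gpr143, the ocular albinism receptor of the melanosome membrane, which bears on the size and number of the organelles (ENSMUSG00000025333, chromosome X, 152781921 to 152808646), had 34.7, 51.5 and 38 normalised CPM in control and 64.9, 60.5 and 86.7 with fenofibrate. The groups did not overlap, but the highest control library and the lowest fenofibrate library were close, and the highest library was again fenofibrate replicate 3. Gpr143 rose 1.71-fold, with group means of 41.4 ± 8.90 and 70.7 ± 14.0 normalised CPM (SD, 3 libraries per group) and a log2 fold change of 0.77 ± 0.18 (SE, 95% interval 0.35 to 1.19, adjusted p = 0.0120). Its interval was the widest of the 10. The SD was 21.5% of the mean in control and 19.8% with fenofibrate, where counting error alone gives 2.83% to 4.56%. Leaving out 1 library at a time, its log2 fold change ran from 0.60 without fenofibrate replicate 3 to 0.96 without control replicate 2, and it was called each time. Mlph, Oca2, Dct, Slc24a5, Pmel and Slc45a2 were also called in all 13 alternatives.

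**Figure D3:**
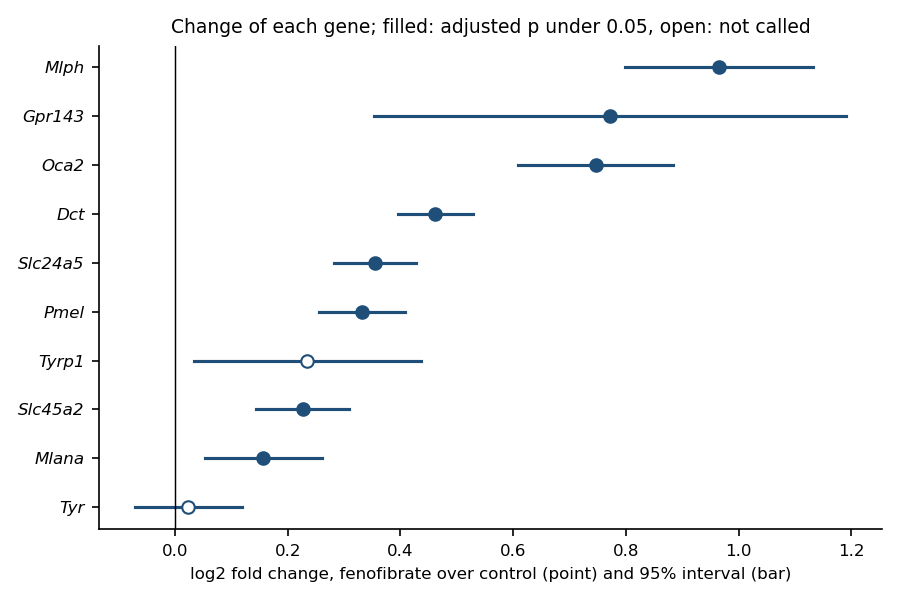
Log2 fold change of fenofibrate over control (x axis) for each of the 10 genes, with its 95% interval. Filled points passed an adjusted p of 0.05 and open points did not; the changes range from 0.02 for Tyr to 0.97 for Mlph, and the intervals of Gpr143 and Tyrp1 are the widest.

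Levels of different genes can be compared only per length, for which the authors' deposited FPKM was used. In control cells Pmel had the highest FPKM of the 10, at 2010.3 ± 27.7 (mean ± SD, n = 3), followed by Tyrp1 at 1704 ± 147 and Mlana at 1659.5 ± 74.6. Tyrp1 and Mlana overlapped in their ranges over libraries. These 3 genes ranked 14, 16 and 17 by FPKM among all genes of the table. Below them came Dct at 783 ± 7.46, then Slc45a2 at 349 ± 8.68 and Slc24a5 at 332 ± 8.64, whose ranges overlapped. Tyr was at 78.6 ± 2.37 FPKM and Mlph at 59.2 ± 2.39, and Gpr143 at 15.4 ± 3.33 and Oca2 at 7.15 ± 0.398 were the lowest. With fenofibrate the order was the same but for 2 exchanges of neighbours. Mlph, at 111 ± 11.02 FPKM, stood above Tyr, at 76.9 ± 3.02, with no overlap in either group. Slc24a5, at 409.5 ± 4.38 FPKM, stood above Slc45a2, at 393 ± 12.5, with overlapping ranges. The order depends on the gene length. The authors' FPKM rests on a length of 4815 bases for Tyrp1 and 623 for Mlana, while the merged exons of the GENCODE M21 annotation span 2828 and 1057 bases, and that annotation gives Mlana a longer extent than the table does. With the merged lengths, an alternative chosen after seeing the data, Tyrp1 came first in control at 2902 ± 249 FPKM, above Pmel at 2306 ± 31.8, and Mlana, at 978 ± 44.0, overlapped Dct, at 944 ± 8.99. With these lengths too Mlph stood below Tyr in control and above it with fenofibrate.

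A few of these genes make up a visible part of the RNA of these cells. Together the 10 genes took 2.40%, 2.28% and 2.26% of all counts in the control libraries and 2.77%, 2.71% and 2.90% with fenofibrate. Each fenofibrate library was above each control library. The mean share was 2.31% ± 0.0776 against 2.79% ± 0.0951 (SD, n = 3 each; exact two-sided permutation test, p = 0.1, the smallest p that 3 against 3 libraries allow). Tyrp1, Dct and Pmel supplied most of these counts in every library. Within the 10, Tyrp1 went from 35.4% to 33.2% of the counts with overlapping groups, so that this difference was within the spread between libraries. The share of Mlph within the 10 was 1.54% ± 0.0410 in control and 2.39% ± 0.154 with fenofibrate. The share of Tyr was 2.90% ± 0.152 and 2.35% ± 0.0848.

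Ratios taken within a library do not depend on how libraries are scaled, and they set each gene directly against Tyr. Because Tyr itself hardly changed (log2 fold change 0.02), these ratios largely repeat the changes given above and are no separate support for them. The log2 count ratio to Tyr was higher in every fenofibrate library than in every control library for 8 of the other 9 genes and lower for 0. Of all genes tested, 49.4% had ratios to Tyr without overlap, 22.2% higher and 27.2% lower. The exception was Tyrp1, whose ratio went from 3.61 ± 0.15 to 3.82 ± 0.12 with overlapping groups (mean ± SD, n = 3 each; exact two-sided permutation test, p = 0.200). The log2 ratio of Mlph to Tyr was -0.85, -0.95 and -0.96 in control and 0.06, -0.12 and 0.12 with fenofibrate. Mlph was thus counted less often than Tyr in all control libraries and about as often with fenofibrate. The ratio of Dct to Tyr went from 3.05 ± 0.04 to 3.49 ± 0.09 (exact two-sided permutation test, p = 0.1, the smallest possible, with n = 3 each), and that of Mlana to Tyr from 0.62 ± 0.06 to 0.76 ± 0.06 with nearly touching groups (same test, exact p = 0.1, n = 3 each). These p values are unadjusted. Set against Pmel, which itself rose, Dct, Oca2 and Mlph were higher in every fenofibrate library, Tyr and Mlana were lower in every one, and Tyrp1, Slc45a2, Slc24a5 and Gpr143 overlapped. Of all genes tested, 66.9% had ratios to Pmel without overlap, 8.06% higher and 58.8% lower.

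**Figure D4:**
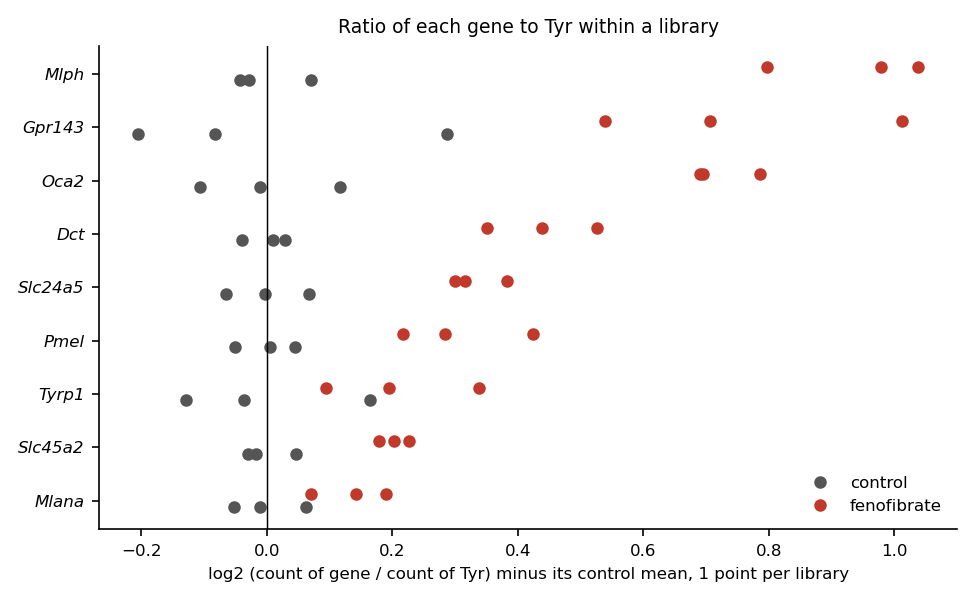
Log2 ratio of each gene's count to that of Tyr in the same library, minus its control mean (x axis), with 1 point per library, control in grey and fenofibrate in red. The fenofibrate points lie to the right of all control points for 8 genes and overlap them for Tyrp1.

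The transcription factors and carriers that act with these genes were also measured. Mitf had 666, 643 and 601 normalised CPM in control and 1452, 1485 and 1404 with fenofibrate. It rose 2.27-fold (adjusted p = 5.43e-06), a larger estimate than that of any of the 10 pigment genes. Sox10, the factor that maintains the lineage together with Mitf, had 303, 315 and 308 normalised CPM in control and 473, 477 and 471 with fenofibrate and rose 1.53-fold (adjusted p = 2.15e-05). Pax3, another lineage factor, had group means of 191 ± 6.71 and 213 ± 5.997 normalised CPM (SD, 3 libraries per group) and was called higher (adjusted p = 0.0222), a call that was lost when control replicate 2, control replicate 3 or fenofibrate replicate 3 was left out (adjusted p = 0.0592, 0.0668 and 0.0598). It held in 6 of 13 alternatives and was also lost with library totals as the scaling (adjusted p = 0.0982) and with limma on log2(FPKM + 0.5) or log2(FPKM + 0.1) (0.112 and 0.113). Mc1r, the melanocortin receptor that favours eumelanin, had group means of 172 ± 1.95 and 163 ± 8.98 normalised CPM (SD, 3 libraries per group) and was not called (log2 fold change -0.08, 95% interval -0.19 to 0.04, adjusted p = 0.244). Of 19 melanocyte regulators listed, 18 were in the table and 16 were tested, of which 8 rose and 3 fell, beside 19.5% of all genes in each direction, and the median log2 fold change was 0.06. Lef1, a Wnt-pathway factor that was hardly counted in control (9, 2 and 6 counts, against 68, 73 and 72), rose 12.3-fold. Tfap2a, a factor of the neural crest lineage, rose 2.17-fold, with at most 53 counts per library on the antisense gene Gm26688 at the same place, and Cited1, a transcriptional coactivator gene, 1.94-fold. Kit, the receptor for stem cell factor, had 41, 66 and 57 counts in control and 13, 15 and 24 with fenofibrate and was 3.12-fold lower. On log2(FPKM + 0.5), a scale that understates the change of low genes, the log2 fold changes of Lef1 and Kit were 0.93 and -0.44, against 3.63 and -1.64 from counts. Pomc, the precursor gene of melanocortin peptides (6 to 23 counts per library), and Usf1, an E-box factor gene, were called lower too, in 4 and 7 of 13 alternatives. The number of regulators that fell was 1 without control replicate 1 or 2 and without fenofibrate replicate 1 or 2. Ednrb, an endothelin receptor gene, had 0 counts in all 6 libraries.

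Both partners of Mlph in the transport complex rose, by smaller folds. Rab27a, the GTPase that recruits melanophilin, had 405, 394 and 393 normalised CPM in control and 501.3, 485 and 517 with fenofibrate and rose 1.26-fold (adjusted p = 0.000438). Myo5a, the myosin Va gene, had 478, 469.7 and 423 normalised CPM in control and 715, 664 and 694 with fenofibrate and rose 1.51-fold (adjusted p = 0.000186). For both genes all 3 fenofibrate libraries were above all control libraries. The FPKM ratio of Mlph to Rab27a went from 1.12 ± 0.0307 to 1.73 ± 0.119, and that of Mlph to Myo5a from 2.62 ± 0.0777 to 3.38 ± 0.301, without overlap (mean ± SD, n = 3 each; exact two-sided permutation test, p = 0.1 for each, the smallest possible). These ratios restate the larger fold of Mlph, and no share over all genes was taken for them. All 32 genes listed for melanosome biogenesis and transport were tested. Of these, 12 rose and 4 fell, beside 19.5% of all genes in each direction, and the other 16 did not pass. The median log2 fold change of all 32 was 0.03. Besides Myo5a, the largest rises were those of Mreg (1.69-fold), which takes part in melanosome transfer, Bace2 (1.48-fold), a protease that cleaves Pmel, and Gpnmb (1.43-fold), a relative of Pmel. The largest falls that were called in all 13 alternatives were those of Rab17 (2.49-fold lower) and of Sytl2 (1.37-fold lower), another gene whose product binds Rab27a. Hps4, a gene of lysosome-related organelle biogenesis, and Ap3d1, an adaptor subunit gene of cargo sorting, were the other 2 that fell, by 1.38-fold and 1.11-fold, calls that held in 7 and 10 of 13 alternatives. The number that fell was 2 without control replicate 1 and without fenofibrate replicate 2.

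**Figure D5:**
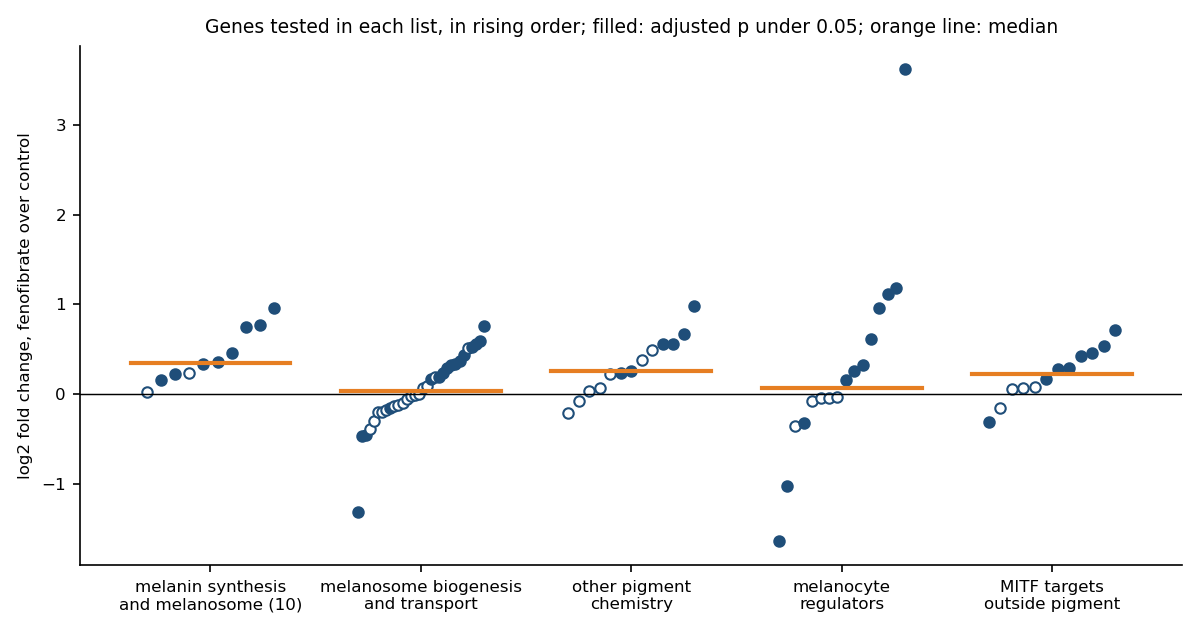
Log2 fold change of fenofibrate over control (y axis) for every gene tested in the 10 pigment genes and in 4 further lists, each list in rising order. Filled points passed an adjusted p of 0.05, open points did not, and the orange line is the list's median, from 0.34 for the 10 pigment genes to 0.03 for melanosome biogenesis and transport.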

How the data were processed

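The table deposited by the authors holds raw counts and FPKM for 54838 genes in each of 6 libraries of mRNA-enriched RNA. Groups were taken from the sample titles. Per the submitters' processing notes, the build was GRCm39 and the tools were StringTie 1.3.0 and HISAT2 2.0.4; the counting tool, strand setting and filters are not given in the sources used here. GENCODE M21 (GRCm38) holds 99.9% of the gene IDs, 98.7% of them at identical coordinates, so positions are given as GRCm38. The deposited FPKM equals the count per library total and per one length for each gene.

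Counts were tested with edgeR 4.0.16 (R 4.3.3): filterByExpr, TMM, glmQLFit and glmQLFTest without covariates, which was also tested on simulated data. The SE is the size of the log2 fold change divided by the square root of F. Single values were put to exact permutation tests (scipy 1.17.1). Alternatives were DESeq2 1.42.0, other scalings, no filter, a replicate block, limma 3.58.1 on log2(FPKM + 0.5) or log2(FPKM + 0.1), and leaving out each library. Counting error alone allows up to 0.222 CPM for a count of 0 (3 counts).

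Genes named are the 10, Mitf, Sox10, Pax3, Mc1r, Rab27a, Myo5a, markers that were called, and, per further list, the called genes that changed most, 4 at most per direction; others are named after their values were seen, where a count or an overlap turns on them. The 10 genes and all lists were chosen with earlier results of these data known. Replicates were not identical: between libraries of a group the chi-square per degree of freedom was 5.44 or more. No source says which cultures were separate beyond the word biological, so p values measure the spread between these libraries.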

Additional observations from a re-analysis of the deposited data

How the results depend on the processing

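The number of the 10 genes called higher was 7 to 9 over 13 alternatives and the number called lower was 0 in each. Among 130 single results for these genes, 117 kept direction and side of the threshold, 7 lost the call (all Mlana), 2 gained it (both Tyrp1) and 4 turned sign. The 4 were all Tyr, which was not called in any: -0.0316 with library totals, -0.0318 and -0.0319 with limma on FPKM, and -0.0035 to 0.0530 when 1 library was left out. The cause was not tested.

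Titles number the replicates 1 to 3 in both groups, but same-numbered libraries did not deviate together (correlations -0.023 to 0.020). Whether same-numbered cultures were handled together is not stated, and these correlations cannot settle it. With the replicate block 4540 genes were called in place of 5326, 7 of the 10 pigment genes were called, Mlana had an adjusted p of 0.0760 and Pax3 of 0.0635, 1 regulator fell in place of 3, and 0 MITF targets fell in place of 1. DESeq2 also gave 1 regulator lower. Limma gave 1 gene of pigment chemistry lower with either pseudocount, against 0. With 1 library left out, 2 to 5 transport genes, 1 to 2 regulators and 0 to 2 MITF targets fell. Relative to Pmel in place of Tyr, 3 of 9 genes were higher and 2 lower without overlap, against 8 and 0; this follows from Pmel having risen. The share of counts in the 10 genes was higher by 0.478 percentage points, and by 0.426 to 0.523 under its alternatives. With merged exon lengths, chosen after seeing the data, 4 of the 10 genes changed place in the control FPKM order. Gpr143 and Oca2, with at most 1248 and 999 counts in a library, are the least precisely counted.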

Other observations

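Among genes of pigment chemistry outside the 10, none fell by edgeR. Of 16 listed, 13 were tested, of which 6 rose and 0 fell (19.5% of all genes in each direction). The median log2 fold change of the 13 was 0.26. At an unadjusted p under 0.05 in edgeR, 8 were higher and 0 lower. The share over all genes was not taken at that threshold and is at least the 19.5% per direction called after adjustment. Limma on FPKM called 1 lower. Gch1, the first enzyme of tetrahydrobiopterin synthesis, had 9.58, 7.81 and 9.21 normalised CPM in control and 18.5, 19.3 and 14.7 with fenofibrate and rose 1.97-fold (adjusted p = 0.00130). Slc7a11, the cystine transporter gene that bears on the yellow-red pigment pheomelanin in the mouse, rose 1.59-fold, Ptgds, a prostaglandin D synthase gene, 1.48-fold and Ggt1, a gene of glutathione breakdown, 1.47-fold. All 4 were called in each of 13 alternatives.

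Of 15 MITF target genes outside pigment, 12 were tested, of which 7 rose and 1 fell (19.5% of all genes in each direction), at a median log2 fold change of 0.23. Bcl2, the survival gene, rose 1.65-fold, Ppargc1a, a coactivator of mitochondrial genes, 1.45-fold and Trpm1, a melanocyte channel gene, 1.38-fold. Snai2, a lineage factor gene, rose 1.34-fold, a call that held in 6 of 13 alternatives. Apex1, a DNA repair gene, was 1.24-fold lower, a call that held in 7 of 13 alternatives; it was lost when any 1 library other than fenofibrate replicate 3 was left out, and Apex1 shares 877 exon bases with Pip4p1 on the other strand.

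Mlph, the largest rise of the 10, and Rab17, the largest fall in the transport list, are neighbours on chromosome 1, with 6990 bases between their annotated spans. This was noticed after their values were seen. Rab17 had 10.4, 9.69 and 10.8 normalised CPM in control and 4.23, 3.47 and 4.72 with fenofibrate.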
